A study of Mus musculus with 14 samples.

Results

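Upper-layer and callosal neuron genes were followed through the embryonic forebrain of mice in which Sbno1 and Trp53 were targeted together. The list held 9 genes, Cux1, Cux2, Pou3f2, Pou3f3, Mef2c, Dok5, Rorb, Lmo4 and Inhba. They were picked by gene symbol, and each was found as 1 row among the 56941 gene IDs of the deposited tables. No measured value entered that rule, but the list was drawn up with earlier results of these libraries known.

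RNA from 14 libraries, prepared with a stranded mRNA kit, had been sequenced. The dcKO group combined floxed Sbno1, floxed Trp53 and the Emx1-Cre driver, with 4 libraries of E18.5 cerebral cortex and 3 of E12.5 telencephalon (E, embryonic day). The ff group, called dfl in the table columns, is read as carrying the floxed alleles without the driver, with 4 libraries at E18.5 and 3 at E12.5. On that reading every group carries the floxed alleles, and because no group has the driver alone or a single deletion, effects of the driver and of either gene cannot be told apart. Strain, pooling of embryos and the deleted exons are not given in the sources used here. Emx1-Cre is active in dorsal telencephalic progenitors and hence in the excitatory neurons that descend from them, while ventrally born interneurons, vessels and microglia do not carry the recombination.

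Total expected counts, in units of 1000000, were 5.98 to 53.9 in the dcKO libraries and 54.4 to 82.0 in the ff libraries at E18.5, and 42.0 to 54.8 in dcKO and 4.92 to 67.4 in ff at E12.5. The shallow libraries were replicate 1 of ff at E12.5 and replicate 1 of dcKO at E18.5. Chromosome Y and Xist reads marked all dcKO libraries as male and 1 ff library at E12.5 and 2 at E18.5 as female. For 11 of 14 samples, description and title put the library in different groups, so libraries were grouped by the genotype word of the table column. Titles and columns gave the same grouping: at each stage every column matched a title in number and genotype, with dfl read as ff. Only the descriptions departed from it. Emx1, the gene the driver is named for, was lower in dcKO at both stages (log2 fold change -0.96, SE 0.08, edgeR adjusted p = 0.0083 at E12.5, and -0.81, SE 0.07, adjusted p = 8.3e-06 at E18.5). Whole-gene Sbno1 counts were 70.2 ± 5.77 CPM in dcKO and 106 ± 9.29 CPM in ff at E12.5 (SD, n = 3 each). At E18.5 they were 72.4 ± 4.24 CPM in the libraries labelled dcKO and 73.6 ± 1.31 CPM in ff (SD, n = 4 each), and in deposited TPM Sbno1 was higher in the libraries labelled dcKO without overlap (18.78 to 26.2 TPM, against 14.7 to 18.4 TPM in ff). Trp53 was lower at E18.5, with 65.0 ± 6.25 CPM in the libraries labelled dcKO and 75.0 ± 2.53 CPM in ff (log2 fold change -0.20, SE 0.06, edgeR adjusted p = 0.032), though the groups overlapped. At E12.5 Trp53 did not pass (-0.23, SE 0.09, edgeR adjusted p = 0.22). Since Sbno1 was not lower at E18.5, directions at E18.5 are given for the libraries labelled dcKO. Nothing in the labels says that replicates came from separate embryos, so the p-values measure the spread between these libraries.

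Excitatory neurons of the cortex are laid down from the inside out: deep-layer neurons that project below the cortex are born first, and upper-layer neurons, many of which send axons through the corpus callosum, are born later and migrate past them. At E12.5 the telencephalon holds mainly progenitors and the earliest neurons, whereas at E18.5 upper-layer neurons are present and still settling. Cux1 and Cux2 are cut homeodomain factors that shape dendrites and synapses of upper-layer neurons. Pou3f2 and Pou3f3 are POU factors that act together in the production and migration of these neurons. Mef2c is a MADS-box factor of cortical neurons and Rorb a nuclear receptor of layer IV. Lmo4 is a LIM-only cofactor of callosal neurons, Dok5 a docking adaptor of receptor tyrosine kinases, and Inhba encodes the subunit of activin A. Several are expressed outside upper layers too, Cux2 in progenitors and interneurons and Mef2c in interneurons, microglia and vessels.

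In the GRCm38 annotation of GENCODE M21, which is not stated to be the one the authors counted on, Cux1 (ENSMUSG00000029705.18) lies at chr5:136248135-136567490 and Cux2 (ENSMUSG00000042589.19) at chr5:121856366-122050102, both on the minus strand. Pou3f2 (ENSMUSG00000095139.3) lies at chr4:22482780-22488366 on the minus strand and Pou3f3 (ENSMUSG00000045515.5) at chr1:42695768-42703176 on the plus strand. Mef2c (ENSMUSG00000005583.17, chr13:83504034-83667080) and Inhba (ENSMUSG00000041324.15, chr13:16011851-16031621) share a chromosome and lie on the plus strand, as does Dok5 (ENSMUSG00000027560.5, chr2:170731807-170879769). Rorb (ENSMUSG00000036192.16, chr19:18930605-19111196) and Lmo4 (ENSMUSG00000028266.18, chr3:144188530-144205220) lie on the minus strand. All are annotated as protein-coding.

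At E18.5 the list split. Dok5, Mef2c, Pou3f2, Rorb and Inhba fell in the libraries labelled dcKO, Cux2 was slightly higher, and Cux1, Pou3f3 and Lmo4 did not pass the test. By edgeR's quasi-likelihood F test, with p adjusted over all genes by Benjamini-Hochberg and a threshold of 0.05, 6 of 9 genes were called, 5 lower and 1 higher. Among all 17974 genes tested 32.2% were called, 16.6% lower and 15.6% higher. The median log2 fold change of the 9 genes was -0.44 against 0.03 over all genes. The groups did not overlap in CPM (counts per 1000000, scaled by TMM) for 6 of the 9 genes, 5 of them lower, beside 33.3% of all genes, 17.2% lower.

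Dok5 differed most among the 9 genes. It had 21.1, 28.2, 24.1 and 26.4 CPM in the libraries labelled dcKO, against 87.5, 73.2, 95.2 and 77.1 CPM in ff. The lowest ff library was thus well above the highest library labelled dcKO. The log2 fold change was -1.71 (SE 0.10, edgeR adjusted p = 8.7e-07), with the labelled dcKO libraries 69.5% below ff on average, and only 0.189% of all genes tested had a lower fold change.

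Mef2c had 263.7, 286.6, 307.6 and 286.4 CPM in the libraries labelled dcKO and 530.5, 499.3, 525.3 and 454.2 CPM in ff. Its groups did not overlap either, and the log2 fold change was -0.81 (SE 0.06, edgeR adjusted p = 4.8e-06). Pou3f2 had 77.5, 75.6, 64.2 and 75.7 CPM in the libraries labelled dcKO and 113.1, 126.1, 115.7 and 116.8 CPM in ff. Every library labelled dcKO was below every ff library, with a log2 fold change of -0.69 (SE 0.06, edgeR adjusted p = 1.0e-05).

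Rorb had 16.5, 19.2, 19.2 and 19.9 CPM in the libraries labelled dcKO and 27.0, 28.5, 28.4 and 21.4 CPM in ff, so replicate 4 of ff came close to the labelled dcKO range. Its log2 fold change was -0.48 (SE 0.09, edgeR adjusted p = 0.0023). Inhba had 10.1, 12.6, 14.1 and 13.2 CPM in the libraries labelled dcKO and 18.7, 19.98, 15.2 and 15.3 CPM in ff, with groups that nearly met. Its log2 fold change was -0.44 (SE 0.12, edgeR adjusted p = 0.012). The call of Inhba was lost with sex as a covariate (adjusted p = 0.056) and in 1 fit of all 14 libraries (adjusted p = 0.30, log2 fold change -0.49), both in edgeR, and in deposited TPM its groups overlapped (exact permutation p = 0.257).

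Cux2 ran the other way, with 131.4, 126.5, 141.5 and 132.1 CPM in the libraries labelled dcKO and 123.4, 122.8, 119.6 and 105.9 CPM in ff. The groups lay side by side without overlap, and the log2 fold change was 0.17 (SE 0.06, edgeR adjusted p = 0.043). Among 8 fits that left out 1 library, this call was kept only without replicate 2 labelled dcKO, and the adjusted p reached 0.17 without replicate 4 of ff (log2 fold change 0.10, edgeR). It was also lost with DESeq2 size factors (0.061), without a filter (0.11), with sex as a covariate (0.21), with the length and GC correction (0.17), in male libraries alone (0.26), in 1 fit of all 14 libraries (0.25) and in DESeq2's Wald test (0.067), all adjusted p. It was kept with upper quartile scaling (adjusted p = 0.015, edgeR) and a filter of at least 1 CPM on average (0.033). In the authors' deposited table Cux2 had an adjusted p of 0.0719.

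Cux1 had 158.8 to 175.8 CPM in the libraries labelled dcKO and 163.5 to 189.0 CPM in ff, and Lmo4 had 216.1 to 245.6 CPM in the libraries labelled dcKO and 214.0 to 262.9 CPM in ff. Their log2 fold changes of -0.06 (SE 0.06) and -0.04 (SE 0.07) did not pass (edgeR adjusted p = 0.47 and 0.68). Pou3f3 had 307.0 to 369.5 CPM in the libraries labelled dcKO and 343.2 to 381.9 CPM in ff (log2 fold change -0.10, SE 0.06, edgeR adjusted p = 0.26). With fold changes corrected for length and GC content of the genes, Pou3f3 passed the threshold (log2 fold change -0.16, edgeR adjusted p = 0.039). The ranges of all 3 genes overlapped between the groups. The exons of Cux1 overlap those of an antisense gene, Gm16599, in GENCODE M21, so its counts are uncertain if the counting ignored strand.

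**Figure D1:**
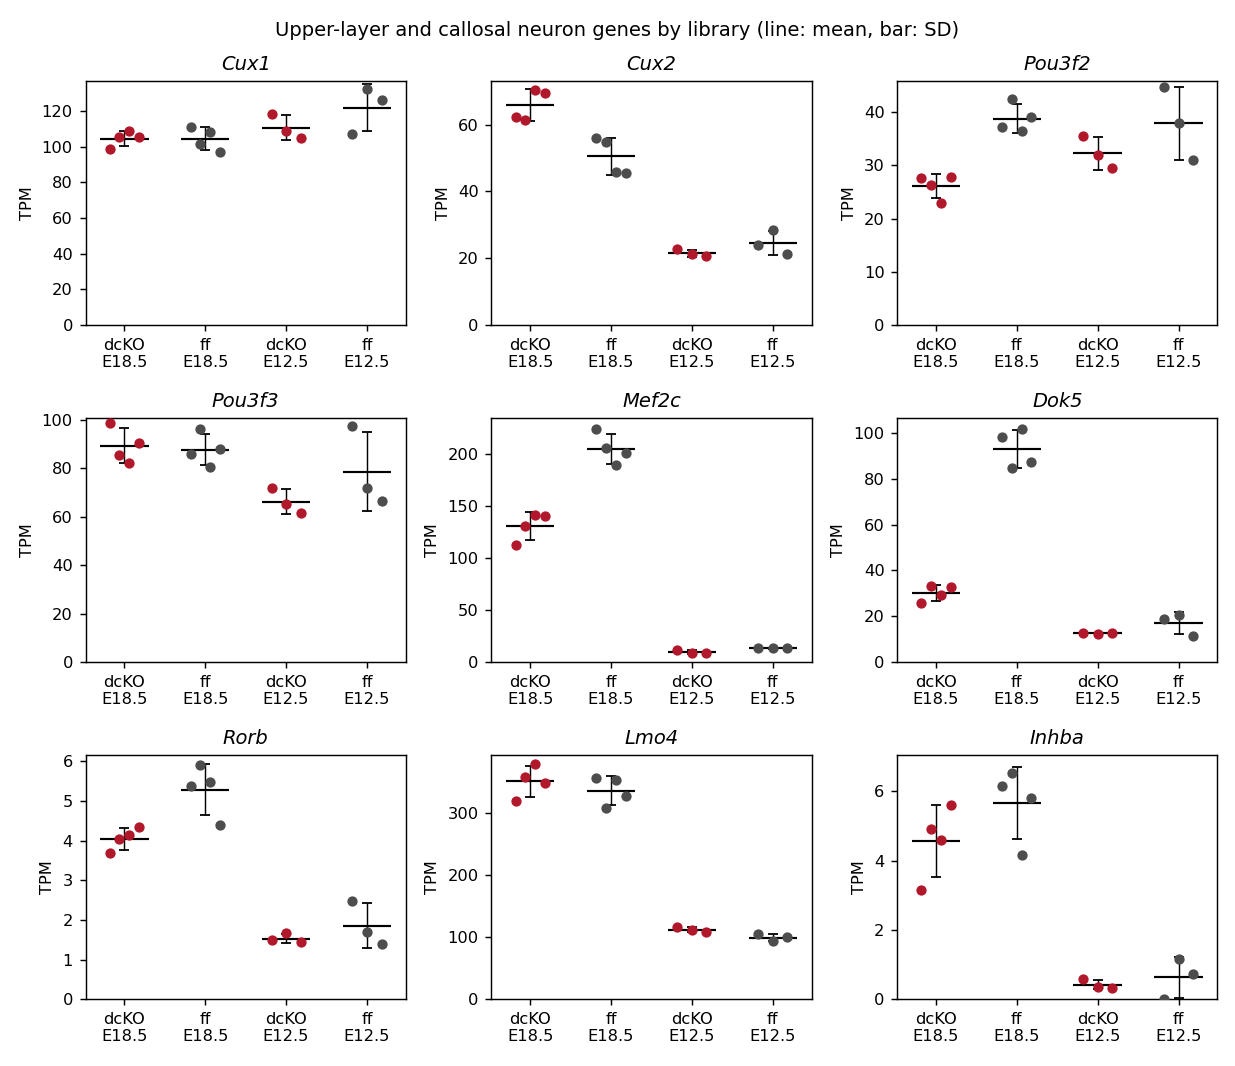
TPM (transcripts per 1000000, vertical axes) of the 9 genes in each library, in dcKO and ff at E18.5 and at E12.5; points are libraries, lines means and bars SD. At E18.5 Dok5 averaged 30.3 TPM in the libraries labelled dcKO and 93.0 TPM in ff, while Cux1 averaged 105 TPM in both.

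**Figure D2:**
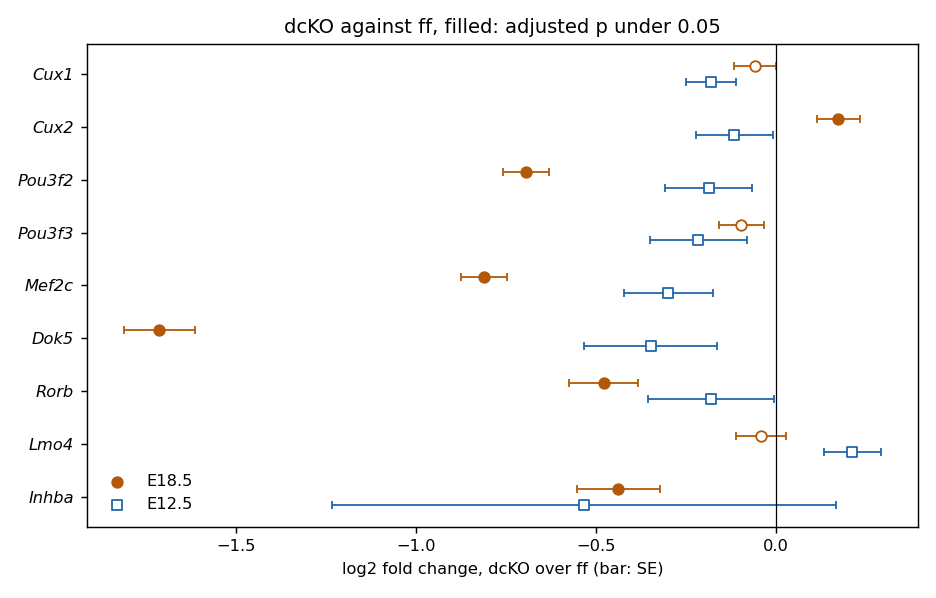
Log2 fold change of dcKO over ff (horizontal axis) for each gene at E18.5 and E12.5, with SE as bars and filled symbols for an adjusted p under 0.05 in edgeR. The E18.5 values run from -1.71 for Dok5 to 0.17 for Cux2, and no E12.5 symbol is filled.

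Paralogs were also compared by the ratio of their counts within a library, which does not depend on scaling between libraries. The comparison of ratios was added after the values were seen. At E18.5 the ratio of Pou3f2 to Pou3f3 counts was 0.210, 0.230, 0.209 and 0.229 in the libraries labelled dcKO and 0.324, 0.330, 0.337 and 0.332 in ff. The groups were far apart relative to their spread, with a log2 difference of -0.59. The ratio of Cux2 to Cux1 counts was 0.828, 0.737, 0.805 and 0.797 in the libraries labelled dcKO and 0.683, 0.731, 0.633 and 0.648 in ff, nearly touching, with a log2 difference of 0.23. Both had an exact two-sided permutation p of 0.0286, the smallest that 4 against 4 libraries allow, or 0.0571 after Benjamini-Hochberg adjustment over the 4 ratios tested, which does not pass 0.05. At E12.5 the Pou3f2 to Pou3f3 ratio was 0.357 to 0.369 in dcKO and 0.344 to 0.393 in ff, and the Cux2 to Cux1 ratio 0.241 to 0.253 in dcKO and 0.194 to 0.262 in ff. Those ranges overlapped (exact permutation p = 0.9 and 1.0, where 3 against 3 cannot go below 0.1).

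**Figure D3:**
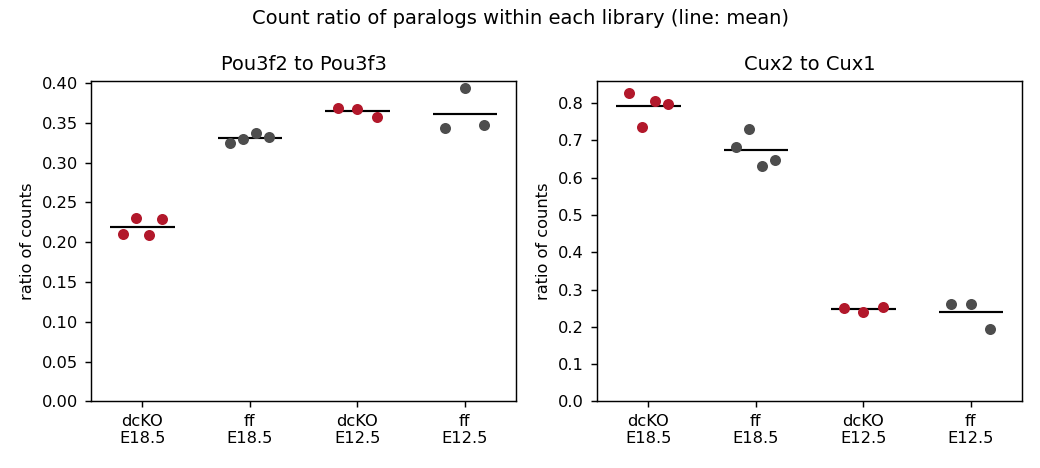
Ratio of Pou3f2 to Pou3f3 counts and of Cux2 to Cux1 counts (vertical axes) in each library of the 4 groups, with the group mean as a line. At E18.5 the Pou3f2 to Pou3f3 ratio averaged 0.219 in the libraries labelled dcKO and 0.331 in ff.

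Promoter windows from RefSeq (GRCm38.p6) were at hand for 8 of the 9 genes, in 14 windows, Dok5 being the gene that is named only. They are shown for the genes that fell at E18.5 and for Pou3f3, the paralog of Pou3f2 that did not pass, as the 250 bases upstream of the 5′-most annotated start, 5′ to 3′ on the gene's strand. Capitals mark letters of the motifs searched on both strands, which are spelled out after the sequences.
Pou3f2, chr4:22488367-22488616, minus strand: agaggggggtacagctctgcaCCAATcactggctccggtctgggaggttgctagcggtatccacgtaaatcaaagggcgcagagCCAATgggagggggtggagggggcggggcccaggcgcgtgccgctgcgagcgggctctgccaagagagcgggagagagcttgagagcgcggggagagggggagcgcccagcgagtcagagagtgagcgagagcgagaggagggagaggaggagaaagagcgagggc
Pou3f3, chr1:42695518-42695767, plus strand: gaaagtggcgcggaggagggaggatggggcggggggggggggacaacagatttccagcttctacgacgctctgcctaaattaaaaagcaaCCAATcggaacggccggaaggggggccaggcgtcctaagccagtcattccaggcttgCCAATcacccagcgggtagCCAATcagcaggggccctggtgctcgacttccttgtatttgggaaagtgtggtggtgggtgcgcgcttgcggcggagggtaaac
Mef2c, chr13:83503784-83504033, plus strand: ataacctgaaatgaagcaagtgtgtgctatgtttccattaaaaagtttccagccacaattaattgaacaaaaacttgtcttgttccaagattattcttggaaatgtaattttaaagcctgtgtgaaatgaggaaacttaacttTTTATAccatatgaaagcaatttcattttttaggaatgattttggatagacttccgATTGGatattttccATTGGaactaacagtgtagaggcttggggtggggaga
Rorb, chr19:19111197-19111446, minus strand: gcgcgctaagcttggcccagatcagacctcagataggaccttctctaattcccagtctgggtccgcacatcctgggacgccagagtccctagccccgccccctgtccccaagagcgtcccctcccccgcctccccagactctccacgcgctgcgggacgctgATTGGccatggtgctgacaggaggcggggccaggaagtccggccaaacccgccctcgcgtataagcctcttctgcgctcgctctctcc
Inhba, chr13:16011601-16011850, plus strand: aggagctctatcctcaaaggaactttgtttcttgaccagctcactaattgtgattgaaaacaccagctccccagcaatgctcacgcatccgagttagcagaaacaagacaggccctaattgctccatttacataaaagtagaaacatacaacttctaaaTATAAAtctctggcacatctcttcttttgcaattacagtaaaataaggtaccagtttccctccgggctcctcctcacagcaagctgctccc

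The Pou3f2 and Pou3f3 windows were alike in kind, with 66.8% and 60.8% GC, CCAAT letters in both and no octamer. The first Mef2c window (33.6% GC) and the Inhba window (43.2% GC) were poorer in GC than the median of 52.4% over all windows and held TATA box letters, on the opposite strand in Mef2c and on the gene's strand in Inhba. The Rorb window had 66.0% GC and CCAAT letters on the opposite strand. The motifs searched, each with the share of all 32851 windows of this length that hold it, began with the CCAAT box (CCAAT), found in 33.8% of them. The other general element was the TATA box (TATAAA), found in 12.4% of windows. The E-box of neurogenic factors (CAGATG) was found in 14.4% of windows. For the half-site of ROR receptors (AGGTCA) the count was 4607 windows. The octamer of POU factors (ATGCAAAT) was found in 1.6% of windows. The site of CUX factors (ATCGAT) was found in 0.728% of windows. The MEF2 letters (CTAAAAATA) were found in 0.469% of windows. In the 14 windows of the 9 genes the octamer and the MEF2 letters were found in 0, the ROR half-site in 2 of Mef2c, the E-box in 1 of Mef2c and 1 of Cux2, and the CUX site in 1 of Cux2, where it shares 1 base with TATAAA. These are matches of letters, not sites shown to be bound.

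At E12.5 none of the 9 genes was called between the genotypes. In simulated counts with the means and spread of this comparison, edgeR recovered 34% of the genes set to change 1.5-fold. A missing call therefore does not show equal levels. In edgeR 0 of 9 passed over all genes, with 3 of 9 at an unadjusted p under 0.05, and DESeq2's Wald test likewise called 0 with 3 at an unadjusted p under 0.05. Over all 17853 genes tested, edgeR called 0.19%, with 0.0392% higher and 0.151% lower, and 19.2% had an unadjusted p under 0.05. DESeq2's Wald test called 1237 of 28383 genes, and 3472 had an unadjusted p under 0.05 in it. Of the 9 log2 fold changes 8 were below 0, with a median of -0.19 against 0.01 over all genes.

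Dok5 had 11.8, 11.9 and 12.4 CPM in dcKO and 17.6, 18.2 and 10.9 CPM in ff at E12.5 (log2 fold change -0.35, SE 0.18, edgeR adjusted p = 0.35), so replicate 3 of ff, the female library, was below all dcKO libraries. Mef2c had 29.4, 26.4 and 25.1 CPM in dcKO and 40.5, 29.3 and 31.8 CPM in ff (log2 fold change -0.30, SE 0.12, edgeR adjusted p = 0.23), overlapping by a small margin. Lmo4, at 89.0, 87.6 and 88.2 CPM in dcKO and 82.9, 68.9 and 78.3 CPM in ff, was above 0 (log2 fold change 0.21, SE 0.08, edgeR adjusted p = 0.19). Lmo4 and Cux1 were the genes whose groups did not overlap at E12.5, beside 26.8% of all genes, 13.2% lower. Cux1 had 219.7, 207.5 and 195.8 CPM in dcKO and 225.5, 235.7 and 243.7 CPM in ff (log2 fold change -0.18, SE 0.07, edgeR adjusted p = 0.21).

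The other 5 genes at E12.5 had log2 fold changes of -0.12 for Cux2, -0.19 for Pou3f2, -0.22 for Pou3f3, -0.18 for Rorb and -0.53 for Inhba, with adjusted p from 0.43 to 0.73 in edgeR. Single libraries of ff and of dcKO moved the E12.5 values of the 9 genes. Without replicate 1 of dcKO Inhba was at -0.78, and without replicate 3 of dcKO at -0.33. Rorb was at -0.27 without replicate 2 of dcKO and at -0.12 without replicate 3 of dcKO. Without replicate 1 of ff, the shallow library, Pou3f3 was at -0.04, Pou3f2 at -0.06, Rorb at -0.03 and Mef2c at -0.18. Without replicate 2 of ff Cux2 was at -0.02, Dok5 at -0.18 and Lmo4 at 0.14, and without replicate 3 of ff Cux2 was at -0.23, Dok5 at -0.57, Pou3f2 at -0.30 and Rorb at -0.30. In the 6 fits that left out 1 library, 0 of the 9 genes passed, and the lowest adjusted p was 0.12 in edgeR. Inhba was barely expressed, with 104, 69 and 44 counts in dcKO and 0, 227 and 91 counts in ff, where the 0 came from the shallow library. With the same length and GC correction the log2 fold changes of Cux1, Cux2 and Rorb turned to 0.04, 0.05 and 0.05 and that of Lmo4 was 0.04, while Dok5 was at -0.52 (adjusted p = 0.25 in edgeR).

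From E12.5 telencephalon to E18.5 cortex most of the 9 genes were higher in either genotype, with the highest log2 fold changes for Mef2c and Inhba. Stage and dissected tissue change together and cannot be told apart. In 1 edgeR fit of the 4 groups, 8 of 9 genes were called in dcKO, 6 higher and 2 lower at E18.5, beside 62.2% of 19327 genes, 30.9% higher and 31.3% lower. In ff 7 were called, 6 higher and 1 lower, beside 61.4% of all genes, 31.5% higher and 29.9% lower. Mef2c averaged 131 ± 13.4 TPM at E18.5 in the libraries labelled dcKO (SD, n = 4), against 9.82 ± 1.66 TPM at E12.5 (SD, n = 3), and 205 ± 14.3 TPM against 13.4 ± 0.228 TPM in ff at the same stages. Its log2 fold change between stages was 3.39 (SE 0.11) in dcKO and 3.96 (SE 0.11) in ff.

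Inhba (3.14 in dcKO, 2.97 in ff), Lmo4 (1.38 and 1.68), Rorb (1.23 and 1.61) and Cux2 (1.35 and 1.11) were also higher at E18.5, and Cux1 was lower (-0.32 in dcKO and -0.40 in ff; edgeR adjusted p at most 0.00077 for each of these values). Dok5 was 2.08-fold higher at E18.5 in dcKO and 5.59-fold higher in ff (log2 1.06, SE 0.16, and 2.48, SE 0.17). Pou3f2 was lower at E18.5 in dcKO (log2 fold change -0.52, SE 0.09, edgeR adjusted p = 0.00014) and did not pass in ff (0.03, SE 0.09, adjusted p = 0.82). Pou3f3 passed in neither genotype (0.21 in dcKO and 0.14 in ff). In ff it passed without replicate 1 at E12.5, the shallow library (0.31, edgeR adjusted p = 0.0018). In dcKO it passed with DESeq2 size factors (0.24, edgeR adjusted p = 0.046), a filter of at least 1 CPM on average (0.24, edgeR adjusted p = 0.049) and DESeq2's Wald test (0.24, adjusted p = 0.037).

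**Figure D4:**
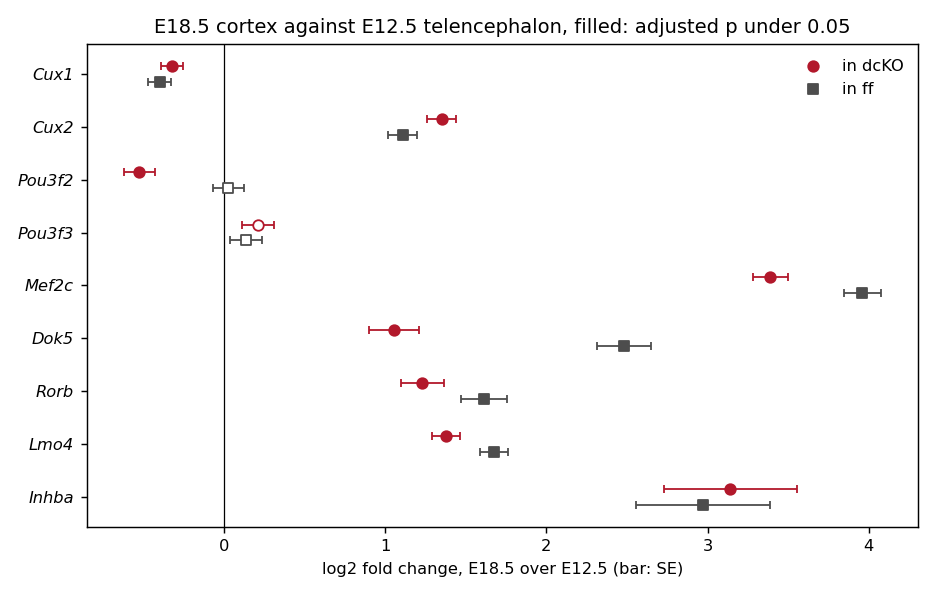
Log2 fold change of E18.5 cortex over E12.5 telencephalon (horizontal axis) for each gene in dcKO and in ff, with SE as bars and filled symbols for an adjusted p under 0.05 in edgeR. Dok5 shows the widest gap between genotypes, 1.06 in dcKO and 2.48 in ff.

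Whether the genotype difference itself changed between the stages was tested by the interaction, (dcKO minus ff at E18.5) minus (dcKO minus ff at E12.5), which called 3 of 9 genes, all lower, beside 16.5% of 19327 genes, 9.41% lower and 7.12% higher. Dok5 had a value of -1.43 (SE 0.22, edgeR adjusted p = 0.00098), Mef2c -0.57 (SE 0.14, adjusted p = 0.013) and Pou3f2 -0.55 (SE 0.13, adjusted p = 0.012). These calls held in each of the 14 fits with 1 library left out. Dissected tissue changes with stage in the interaction too, so stage and tissue cannot be told apart. Lmo4 (-0.30, adjusted p = 0.090), Rorb (-0.38, adjusted p = 0.18), Cux2 (0.24, adjusted p = 0.20), Cux1 (0.08), Pou3f3 (0.07) and Inhba (0.17, SE 0.54) did not pass in edgeR. Leaving out replicate 3 of ff at E12.5 brought Cux2 past the threshold (0.35, edgeR adjusted p = 0.047), and leaving out replicate 2 of ff at E18.5 did so for Lmo4 (-0.35, edgeR adjusted p = 0.0495).

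In TPM, which divides by length and so allows genes to be set beside each other, the order of the 9 genes at E18.5 was Lmo4 (352 ± 24.7 TPM), Mef2c (131 ± 13.4), Cux1 (105 ± 4.27), Pou3f3 (89.4 ± 7.19), Cux2 (65.9 ± 4.68), Dok5 (30.3 ± 3.52), Pou3f2 (26.2 ± 2.21), Inhba (4.57 ± 1.04) and Rorb (4.05 ± 0.276) in the libraries labelled dcKO (SD, n = 4). In ff it was Lmo4 (337 ± 22.8 TPM), Mef2c (205 ± 14.3), Cux1 (105 ± 6.35), Dok5 (93.0 ± 8.27), Pou3f3 (87.8 ± 6.44), Cux2 (50.5 ± 5.58), Pou3f2 (38.8 ± 2.71), Inhba (5.66 ± 1.04) and Rorb (5.29 ± 0.634). Dok5 was thus 6th in the libraries labelled dcKO, level with Pou3f2, and 4th in ff, among genes whose ranges it overlapped. Ranges over libraries of Cux1 and Pou3f3, Dok5 and Pou3f2, and Inhba and Rorb overlapped in the libraries labelled dcKO, as did those of Cux1 and Dok5, Dok5 and Pou3f3, and Inhba and Rorb in ff. At E12.5 Lmo4 (112 TPM) and Cux1 (111 TPM) led in dcKO with overlapping ranges, Cux1 (122 TPM) led Lmo4 (99.7 TPM) in ff, and Inhba was last in either, at 0.423 and 0.633 TPM.

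Deposited TPM and CPM did not give the same size of difference at E18.5. The median of all tested genes on the log2(TPM + 1) scale was 0.12 higher in the libraries labelled dcKO, so TPM differences are read against that shift. Dok5 was at -1.59, Mef2c at -0.64, Pou3f2 at -0.55, Rorb at -0.31 and Cux2 at 0.38 on that scale (exact two-sided permutation p = 0.0286 each, the smallest possible). Pou3f3 and Lmo4 were at 0.03 and 0.06, above 0 but below the shift. Counts divided by TPM give the effective length RSEM used for a gene, relative to the library's median gene. It can move with the estimated mix of transcripts and with fragment length, and which of them moved was not tested. For Cux2 this length was 5.29% lower in the libraries labelled dcKO with overlapping groups, and for Cux1 it was 5.33% higher without overlap (exact permutation p = 0.0286), a difference that 16.3% of 9428 genes equalled or passed in size. Dok5, Pou3f2, Pou3f3, Mef2c and Rorb differed by at most 2.06% in length at E18.5, without overlap for Dok5 (1.23%), Pou3f2 (0.938%) and Pou3f3 (0.90%). Differences of at least that size were found in 61.8% of the 9428 genes for Dok5, 75.2% for Pou3f2 and 77.2% for Pou3f3. The share of all genes without overlap in length was not counted.

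Among 23 other upper-layer and callosal genes, 10 were lower and 3 higher at E18.5, and 10 did not pass, with a median log2 fold change of -0.09. Over all genes tested 16.6% were lower and 15.6% higher, with a median of 0.03. The helix-loop-helix factor Bhlhe22 had a log2 fold change of -1.19 (SE 0.07), lipoprotein lipase Lpl had -1.003 (SE 0.10) and the actin-binding gene Limch1 had -0.92 (SE 0.05), with edgeR adjusted p of at most 1.4e-05. The 3 that were higher, named here after their values were seen, were Cited2 (0.45), Btg1 (0.38) and Tle1 (0.17). At E12.5 0 of 22 tested genes of that list passed in edgeR, beside 0.19% of all genes. The lowest p were those of Plxnd1 (log2 fold change -0.55, edgeR adjusted p = 0.052) and Limch1 (-0.49, adjusted p = 0.076).

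Gene families of the 9 genes went both ways at E18.5, in a list that also counts the LIM-binding cofactors Ldb1 and Ldb2. In it 5 were higher and 7 lower of 19 tested, with a median log2 fold change of 0.03. Over all genes tested 15.6% were higher and 16.6% lower. Pou3f1, another POU factor of upper-layer neurons, was lower (-0.60, SE 0.06), while its relative Pou3f4, named after its values were seen, was higher (0.65, SE 0.10, edgeR adjusted p = 0.00031). The adaptor Dok4 (-0.62, SE 0.07), the chromatin organiser Satb1 (-0.59, SE 0.06) and the LIM-binding cofactor Ldb2 (-0.71, SE 0.06) were lower, with edgeR adjusted p of at most 3.5e-05 for these and Pou3f1. In the activin pathway that Inhba belongs to, 3 of 13 tested genes were lower and 2 higher, with a median of 0.04. This lies near the shares of 16.6% and 15.6% over all genes. Follistatin, Fst, the secreted inhibitor of activin, was at -0.92 (SE 0.12), the type I receptors Acvr1 at -0.40 (SE 0.06) and Acvr1b at -0.24 (SE 0.06), and the type II receptor Acvr2b at 0.68 (SE 0.09; edgeR adjusted p at most 0.011). At E12.5 0 of 19 genes of the family list and 0 of 13 pathway genes passed in edgeR, beside 0.19% of all genes. Satb1 (-0.39, edgeR adjusted p = 0.074) and the activin subunit Inhbb (-0.54, adjusted p = 0.076) came close to the threshold. Inhbc was at 0 TPM in every library and Inhbe at 0 TPM in every E18.5 library.

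Markers of cell types also differed at E18.5, where 16.6% of all genes tested were lower and 15.6% higher. Of 5 markers of cortical excitatory neurons 5 were lower, with a summed level of 405 to 472 TPM in the libraries labelled dcKO and 692 to 775 TPM in ff, among them Neurod6 (log2 fold change -1.29, SE 0.06) and Neurod2 (-0.35, SE 0.06), both neurogenic helix-loop-helix factors. Of 8 markers of all neurons 8 were lower (3913 to 4483 TPM summed in the libraries labelled dcKO and 5728 to 5922 TPM in ff), and 9 of 13 deep-layer corticofugal genes were lower with 2 higher (823 to 930 TPM summed in the libraries labelled dcKO and 942 to 1008 TPM in ff). In that list Crym was at -1.44 and Nr4a2 at -1.22, and the 2 higher genes, named after their values were seen, were Foxp2 (0.66) and Bcl11b (0.45).

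Other lists held genes that were higher in the libraries labelled dcKO at E18.5: 10 of 10 interneuron and ventral markers (1150 to 1303 TPM summed in the libraries labelled dcKO and 680 to 786 TPM in ff), 5 of 7 striatal markers (267 to 317 TPM and 173 to 222 TPM), 7 of 9 radial glia markers (2350 to 2622 TPM and 2172 to 2285 TPM), 4 of 6 intermediate progenitor markers (219 to 254 TPM and 143 to 181 TPM), 4 of 7 microglia markers (132 to 158 TPM and 86.3 to 110 TPM), 2 of 3 thalamus markers (17.1 to 17.9 TPM and 10.3 to 13.4 TPM) and 1 of 6 endothelial markers (154 to 210 TPM and 112 to 184.8 TPM). Over all genes tested 15.6% were higher and 16.6% lower. No marker in these lists was at 0 in all libraries of a stage. Choroid plexus markers passed in 0 of 5 (edgeR), with 4.82 to 3308 TPM summed in the libraries labelled dcKO and 1448 to 2532 TPM in ff, and Ttr was at 1.82 TPM in replicate 3 labelled dcKO. Meningeal markers passed in 0 of 4 (184 to 264 TPM in the libraries labelled dcKO and 122 to 236 TPM in ff) and erythroid markers in 0 of 3 tested (347 to 1680 TPM and 2124 to 3747 TPM, edgeR). In whole tissue, fewer cells of a type and less RNA per cell cannot be told apart, and the part of these cell types in the values of the 9 genes was not tested. At E12.5 edgeR called 0.19% of all genes. The excitatory neuron markers were at 155 to 182 TPM summed in dcKO and 213 to 309 TPM in ff at E12.5. Of these markers 0 of 5 passed in edgeR (Neurod6 -1.001, adjusted p = 0.052). The intermediate progenitor marker Eomes passed at E12.5 (-0.74, SE 0.07, edgeR adjusted p = 0.014). So did the deep-layer genes Tbr1 (-0.79, SE 0.11, edgeR adjusted p = 0.047) and Fezf2 (-0.57, SE 0.07, edgeR adjusted p = 0.047). These E12.5 calls, like that of Emx1, were lost without replicate 2 or replicate 3 of dcKO, when edgeR called 0 of all genes, with 1790 and 1723 at an unadjusted p under 0.05.

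**Figure D5:**
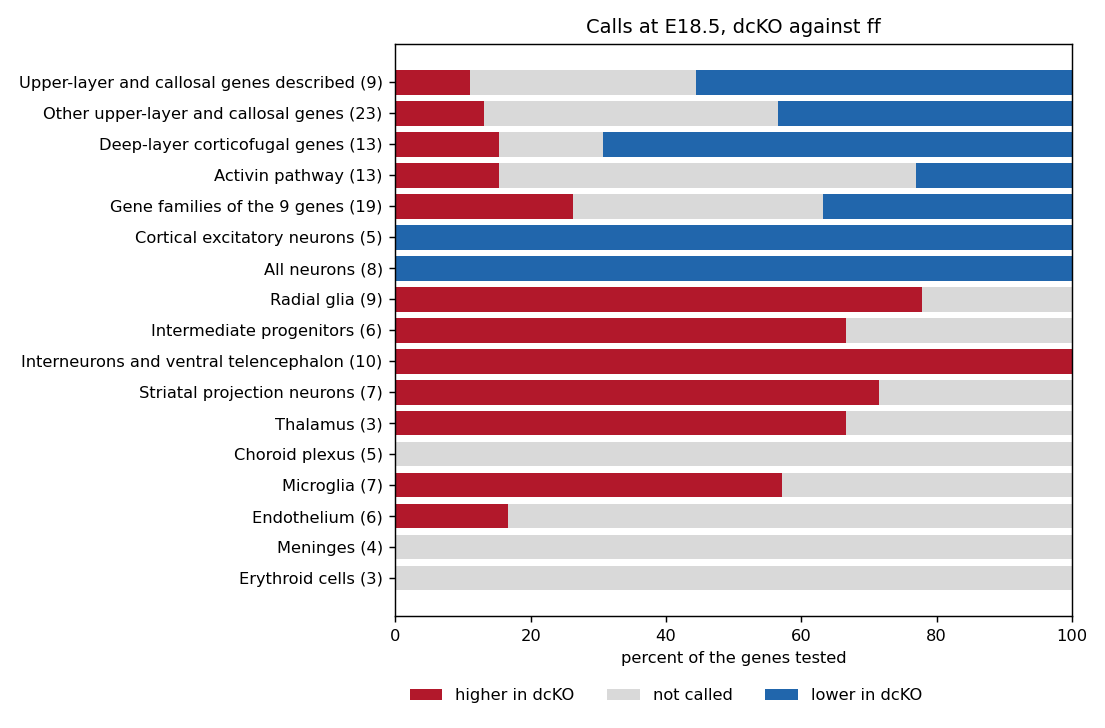
Percent of the tested genes of each list (horizontal axis, number tested in brackets) that were called higher, lower or not at all in the libraries labelled dcKO against ff at E18.5 in edgeR. Lists share genes, Pou3f1 and Ldb2 among them, and the family list also counts the cofactors Ldb1 and Ldb2. The 9 upper-layer and callosal genes have 5 lower and 1 higher.

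The genes most like each of the 9 over the 8 E18.5 libraries, by Pearson correlation of log2 CPM, were taken from 12190 genes. Closest were Khdrbs3 and Rhou to Dok5 (r = 0.997 each), Palm and Crmp1 to Mef2c (0.997 each), Pou3f1 and Gpr37 to Pou3f2 (0.991 and 0.989), Rusc2 and Pfkfb3 to Inhba (0.988 and 0.985), and Mbp and Fasn to Rorb (0.981 and 0.977). For the genes that moved little the closest were Slc2a13 and Atxn1 to Cux2 (0.976 and 0.948), Cacng8 and Cep78 to Pou3f3 (0.969 and 0.931), Lmo4 with Pyurf and Timm9 (0.954 and 0.949), and Cux1 with Abhd12 and Gzf1 (0.951 and 0.943). These values are a description only, over 8 libraries that share 2 genotypes.

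In the authors' deposited table, whose headers do not give the direction of the fold change, the log2 fold changes at E18.5 were -1.72 for Dok5, -0.82 for Mef2c, -0.70 for Pou3f2, -0.46 for Rorb, -0.40 for Inhba and 0.14 for Cux2. All of these but Cux2 had an adjusted p of at most 0.0024 in the authors' deposited table, and Cux1, Pou3f3 and Lmo4 had 0.381, 0.134 and 0.577. At E12.5 the lowest adjusted p among the 9 genes in the authors' deposited table were 0.0936 for Lmo4 and 0.0969 for Cux1.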

How the data were processed

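RNA was extracted with a column kit and made into stranded mRNA libraries, per the labels' protocols; Trim Galore, STAR, RSEM and DESeq2 are named in the submitters' processing notes, and versions, genome build, annotation and strand setting are not given in the sources used here. The authors deposited expected counts per gene, not normalized, and TPM per gene in separate tables. The authors' table marked E18.8 is read as E18.5, and whether the deposited fold changes were shrunk is not stated. At E12.5 the deposited log2 fold change was -0.14 for Cux1 and -0.0098 for Inhba. DESeq2's Wald test run here gave -0.18 and -0.41, with the same p-values as deposited (0.0143 and 0.561). Deposited and edgeR fold changes are therefore not the same measure. The authors' deposited DESeq2 tables hold log2 fold changes, p-values, a mean normalized signal and a standard error treated as a score, per the file headers.

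Expected counts were rounded, filtered with filterByExpr, scaled by TMM and tested with edgeR 4.0.16 (robust quasi-likelihood, R 4.3.3), each stage in its own fit, and the interaction and stage differences in 1 fit of 4 groups. Log CPM used a prior count of 2, and log2(TPM + 1) was tested by exact permutation. Alternatives were DESeq2 1.42.0 (Wald test and size factors), upper quartile scaling, other filters, sex as a covariate, a spline correction for length and GC content, a pseudocount of 0.1, and each library left out; male libraries alone were added after the data were seen. Steps were tested on simulated data. Of genes set to change 1.5-fold, edgeR recovered 34% at E12.5, 53% at E18.5 and 24% in the interaction. False calls numbered 13, 12 and 2 in the same order. A missing call therefore does not show the absence of a difference in any of them. Replicate numbers follow column order within a group and pair nothing. All 9 genes are named. Other lists name up to 4 genes with the lowest p at E18.5 and 2 at E12.5 (some results under this rule are not reported here), and the genes most like each are the 2 with the highest correlation among those averaging at least 5 CPM. The genes, lists and tests were chosen with earlier results of these data known. No pair of replicates agreed within sampling noise. Chi-square per degree of freedom was 4.00 for replicates 2 and 3 of dcKO at E12.5, and 16.6 to 41.6 for every other pair. Leaving out either of those 2 libraries left 0 genes called at E12.5 in edgeR, and leaving out replicate 1 of dcKO gave 571. Why these libraries were so close was not tested.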

Additional observations from a re-analysis of the deposited data

Results flagged for a closer look

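Among groups of 4 libraries, Pou3f2 in replicate 3 labelled dcKO at E18.5 (64.2 CPM) stood apart from the other 3 (75.6 to 77.5 CPM); by chance about 0.05 of groups are marked so. By the interaction test the genotype difference changed between E12.5 telencephalon and E18.5 cortex for Dok5 (-1.43), Mef2c (-0.57) and Pou3f2 (-0.55) on the log2 scale. Each difference was more negative at E18.5 than at E12.5, and stage and tissue cannot be told apart.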

How the results depend on the processing

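The count of the 9 genes called kept within 1.5 times its value under every alternative run: 0 at E12.5, 4 to 6 at E18.5, 3 or 4 for the interaction, 8 or 9 between stages in dcKO and 7 or 8 in ff. Dok5, Mef2c, Pou3f2 and Rorb stayed lower and past the threshold at E18.5 in every fit, male libraries alone included. Genes called over all genes at E12.5 were 34 and moved to 56 with DESeq2 size factors, 1237 with DESeq2's Wald test, 244 without a filter, 9 with a mean of at least 1 CPM, 3 with sex as a covariate, 152 with the length and GC correction, 6 in male libraries alone, 1079 in 1 fit of all 14 libraries, and 0 to 571 with 1 library left out (0 without dcKO replicate 2 or 3, with 1790 and 1723 genes at an unadjusted p under 0.05 in edgeR; 571, 71, 77 and 6 without dcKO replicate 1 and ff replicates 1, 2 and 3). Interaction calls over all genes were 3195 and ran from 1690 to 3307 with 1 library left out, lowest without dcKO replicate 3 (1690) or 2 (1733) at E12.5; the cause was not tested. Signs that turned, none of them past a threshold, were those of Cux1 (0.043), Cux2 (0.052) and Rorb (0.051) at E12.5 with the length and GC correction, Inhba at E12.5 with log2(TPM + 0.1) (0.12), and Pou3f3 (0.0256 and 0.0259) and Lmo4 (0.0631 and 0.0632) at E18.5 with log2(TPM + 1) and log2(TPM + 0.1). The same holds for Pou3f2 between stages in ff without a filter (-4.9e-05). With 1 library left out, ranges that crossed 0 were -0.88 to 0.18 for Inhba at E12.5, -0.11 to 0.15 for Pou3f3 and -0.49 to 0.43 for Inhba in the interaction, and -0.083 to 0.15 for Pou3f2 between stages in ff. No paired analysis was possible because the table columns carry no number that links libraries across genotypes. The shallow E12.5 ff library (4.92, in units of 1000000 counts) had 0 counts of Inhba, and without it the E12.5 log2 fold changes were -0.04 for Pou3f3, -0.06 for Pou3f2 and -0.03 for Rorb, and Pou3f3 passed between stages in ff (0.31, edgeR adjusted p = 0.0018).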
